A study of Homo sapiens with 21 samples.

Results

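Factors of nonsense-mediated decay (NMD), 9 genes in all, were followed through 7 groups of a breast cancer cell line: UPF1, UPF2, UPF3A, UPF3B, SMG1, SMG5, SMG6, SMG8 and SMG9. They were chosen by name, as the rows of both count tables whose Ensembl gene identifier maps to one of these symbols. All 9 were found in both tables, of 60668 identifiers listed, and all 9 passed the filter on low counts in both.

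NMD is the pathway that degrades messenger RNAs on which a ribosome stops too early, such as those with a premature stop codon upstream of an exon junction. UPF1, an RNA helicase, is recruited to the stalled ribosome, and UPF2 and UPF3B connect it to the exon junction complex (EJC) that splicing leaves on the RNA. The kinase SMG1, held in a complex with SMG8 and SMG9, phosphorylates UPF1, and phosphorylated UPF1 recruits SMG5 and the endonuclease SMG6, which start the degradation. SR proteins such as SRSF2, SRSF3 and SRSF7 are splicing factors, and many of their own transcripts are known to be cut down through NMD. The messenger RNAs of several NMD factors are known to be NMD substrates themselves, a feedback on the pathway.

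The cells were HCC1806, an established human line of triple-negative breast cancer, grown as adherent cultures to near confluence. Messenger RNA was selected by its polyA tail and sequenced as stranded paired-end libraries. There were 21 libraries in 7 groups of 3. One count table held the control 3xCTL, the line 3xSR (by its label carrying all of SRSF2, SRSF3 and SRSF7 overexpressed) and the line MYC-OE (labelled as overexpressing the transcription factor MYC). The other held the single plasmid control 1xCtrl and the lines SRSF2-OE, SRSF3-OE and SRSF7-OE, each labelled as overexpressing the SR protein it is named for. The labels name no treatment. The vectors, the promoters driving them, and whether a line is a clone or a pool are not given in the sources used here. Nothing says that replicates came from separate cultures, so p-values measure the spread between these libraries, which may be technical.

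Depth was between 143269192 and 303323552 counts per library. CPM below is counts per mega-count of library size, scaled by the TMM method. As group means, the epithelial genes EPCAM and CDH1 were at 563 to 673 and 322 to 444 CPM. Of the basal keratin genes, KRT5 was at 1650 to 2398 CPM, and KRT17 ran from 56.3 in SRSF7-OE to 197 in SRSF3-OE. The luminal keratin gene KRT18 was at 363 to 574 CPM. Markers of leukocytes (PTPRC) and endothelium (PECAM1) reached at most 0.418 and 0.105 CPM, and the progesterone receptor gene PGR at most 1.27 CPM. The estrogen receptor gene ESR1, at 6.72 to 11.0 CPM, and the fibroblast gene COL1A1, at 7.08 to 9.54 CPM, were low but detected. SRSF3 was at 522 CPM in SRSF3-OE against 375 in 1xCtrl, SRSF7 at 434 CPM in SRSF7-OE against 364, and MYC at 174 CPM in MYC-OE against 93.7 in 3xCTL. In 3xSR SRSF3 was at 508 CPM against 410 in 3xCTL and SRSF7 at 396 against 293. SRSF3 (458 CPM) and SRSF7 (426 CPM) were also above 1xCtrl under the label SRSF2-OE (adjusted p = 0.00794 and 0.00681, edgeR), while SRSF2 itself was at 397 CPM there against 445 in 1xCtrl, and at 386 under the label 3xSR against 404 in 3xCTL. The SRSF2 difference under the label SRSF2-OE was -0.16 on the log2 scale (adjusted p = 0.098), and -0.17 (adjusted p = 0.00992) with GC content accounted for as described below. Neither line carried a rise of total SRSF2 messenger RNA, so the names SRSF2-OE and 3xSR below mean the libraries so labelled. 3xSR also had MYC at 157 CPM, above its control (log2 fold change 0.75, SE 0.0471, adjusted p = 4.01e-07, edgeR quasi-likelihood test).

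One control library stood apart. In 1xCtrl replicate 2, genes of high GC content read high relative to the other libraries. A library's GC trend is the slope, across genes, of log2 CPM less the gene's mean over the 21 libraries, on transcript GC. For each 10 points of GC it was 0.245 in that library, -0.118 in replicate 1 and -0.232 in replicate 3. The other table had the same kind of spread in its control, with slopes of 0.182, -0.081 and 0.164 in the 3 libraries of 3xCTL. Slopes also went with the line. They were -0.125, -0.049 and -0.104 in 3xSR, 0.135, 0.135 and 0.203 in MYC-OE, and -0.189, -0.145 and -0.125 in SRSF3-OE. SRSF2-OE had -0.001, -0.055 and -0.020, and SRSF7-OE 0.083, -0.042 and 0.139. How much of a difference between lines comes with this trend was not tested. The NMD factors fall on both sides of this trend. UPF1 (59.6% GC), SMG5 (57.6%), SMG9 (57.5%) and SMG6 (55.9%) have GC-rich transcripts, and UPF2 (41.5%), UPF3B (42.1%), SMG1 (42.3%), UPF3A (46.9%) and SMG8 (46.9%) do not. Results are therefore also given with each library's GC trend removed, a setting added after the data were seen, wherever it changed a call.

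Across the lines the NMD factors differed little from control. In bulk RNA, fewer cells with a transcript and less of it per cell cannot be told apart. In the 45 tests of 9 factors in 5 lines, each against its own control, 8 passed an adjusted p of 0.05: 5 were higher and 3 lower. The largest absolute log2 fold change among the 45 was 0.39. SMG8 and SMG1 were each called in 2 lines, UPF2, UPF3A, UPF3B and SMG6 in 1 line, and UPF1, SMG5 and SMG9 in none. Group means of a factor spanned from 1.17-fold (SMG5) to 1.47-fold (UPF3B) between the lowest and the highest of the 7 groups.

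**Figure D1:**
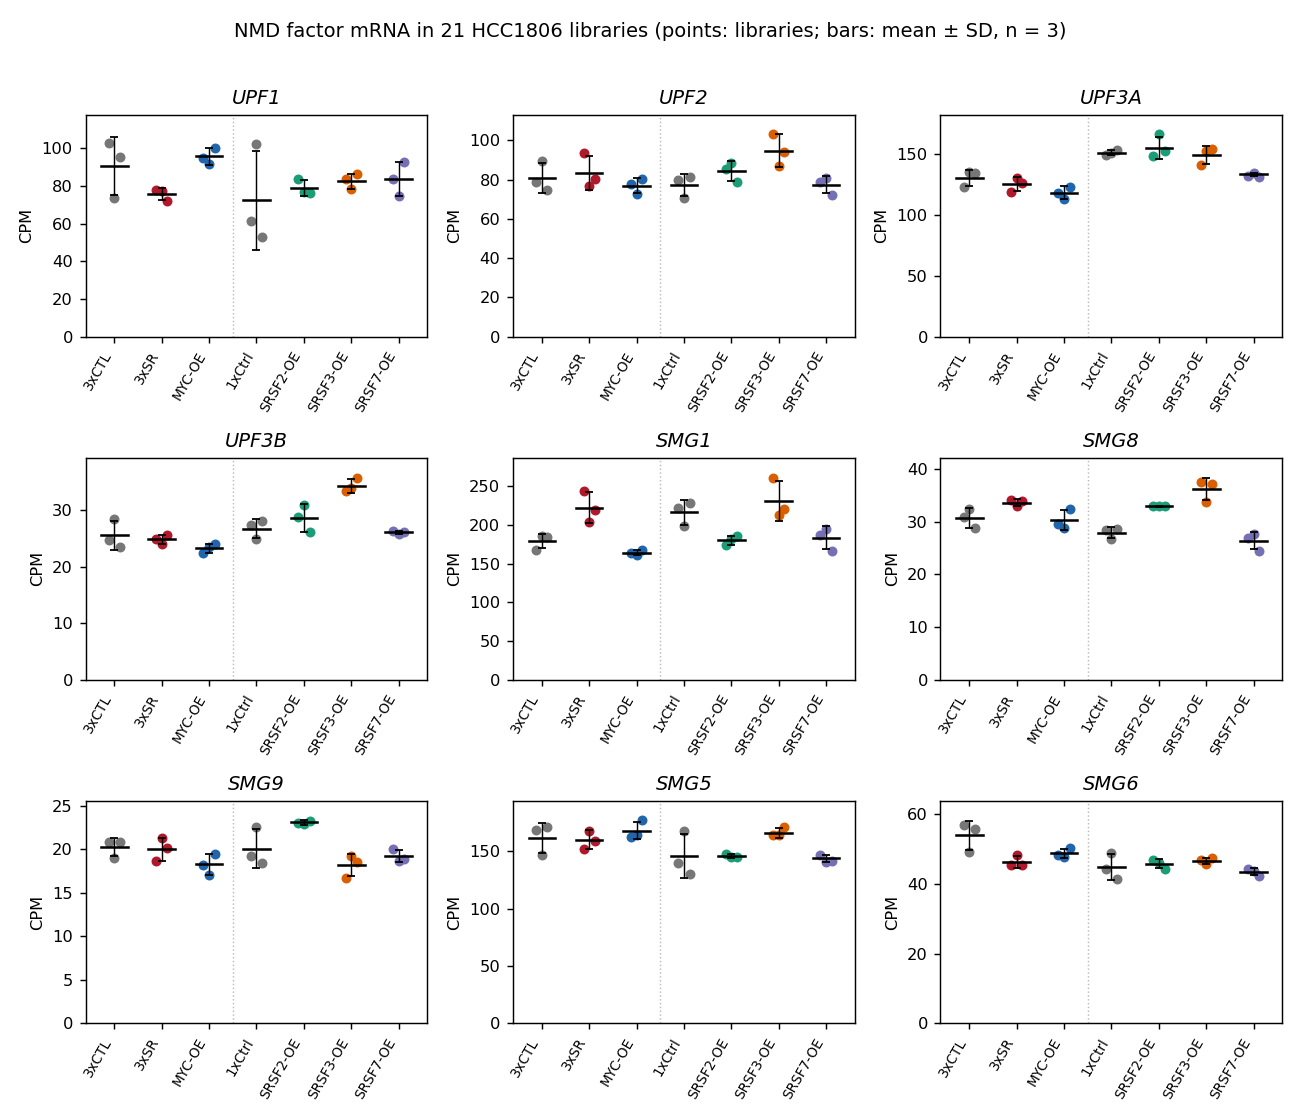
Level of each NMD factor in CPM (vertical axes, starting at 0) in the 7 groups, with a point for each library and bars at the mean ± SD of 3 libraries; a dotted line parts the groups of the 2 count tables. UPF3B is highest in SRSF3-OE (34.2 CPM), and the 1xCtrl libraries of UPF1 spread from 53.1 to 102 CPM. SMG1 has its highest means in SRSF3-OE (231 CPM), 3xSR (222) and the control 1xCtrl (216), and is at 179 in the control 3xCTL.

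Levels between genes were compared per kilobase of the longest coding transcript in GENCODE. Over the 21 libraries UPF3A was highest at 57.6 CPM per kb and SMG9 lowest at 3.61, with SMG5 at 34.2, UPF1 at 15.5, UPF2 at 14.7, SMG1 at 12.2, UPF3B at 11.4, SMG8 at 8.96 and SMG6 at 7.91. The order depends on the length used: per kilobase of all exons joined, SMG5 (29.4) came before UPF3A (23.8), and UPF2 (13.9) before UPF1 (9.62). SMG6 and SMG9 were the lowest under either length.

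UPF1, at chromosome 19, 18831938 to 18868236 (GRCh38, plus strand), was not called in any line against its control. Its CPM in 1xCtrl was 61.4, 102 and 53.1, and in SRSF3-OE 83.4, 78.1 and 86.1. The control libraries lie on both sides of every library of SRSF3-OE, so the groups overlap. The log2 fold change was 0.21 (SE 0.195, adjusted p = 0.482), and it was 0.37 (SE 0.0737, adjusted p = 0.00114) with the GC trend removed. Without 1xCtrl replicate 2, UPF1 was higher in all 3 lines of that table, by 0.45 in SRSF2-OE (adjusted p = 0.00287), 0.52 in SRSF3-OE (0.00103) and 0.56 in SRSF7-OE (0.00104). Leaving out that library and removing the GC trend together gave 0.29, 0.48 and 0.28, each past the threshold. Over all 17 alternatives UPF1 ran from -0.09 to 0.45 in SRSF2-OE, -0.02 to 0.52 in SRSF3-OE and 0.01 to 0.56 in SRSF7-OE. It passed the threshold in 2, 3 and 2 of them. In 3xCTL UPF1 was at 103, 73.5 and 95.5 CPM and in 3xSR at 77.7, 77.1 and 72.2 CPM. The log2 difference of -0.26 (adjusted p = 0.0858) passed the threshold with DESeq2, and became -0.39 (adjusted p = 7.31e-05) without 3xCTL replicate 2, and -0.08 (adjusted p = 0.262) with the GC trend removed. MYC-OE had 94.7, 91.8 and 100 CPM, within the range of its control.

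UPF2 and UPF3B, the pair that links UPF1 to the EJC, were both higher in SRSF3-OE. The 250 bases upstream of their annotated starts are shown because both genes rose in that line, and because the UPF2 window holds CACGTG, the canonical E-box that MYC is known to bind, in capitals. The sequences are from RefSeq (GRCh38.p14), each on the minus strand and printed 5′ to 3′, with UPF2 at chr10:12043171-12043420 and UPF3B at chrX:119852964-119853213.
UPF2: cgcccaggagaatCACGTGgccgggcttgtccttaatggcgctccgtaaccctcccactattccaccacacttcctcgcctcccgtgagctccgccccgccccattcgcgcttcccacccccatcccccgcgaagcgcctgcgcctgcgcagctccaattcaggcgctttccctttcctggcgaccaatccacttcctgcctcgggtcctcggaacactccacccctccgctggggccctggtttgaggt
UPF3B: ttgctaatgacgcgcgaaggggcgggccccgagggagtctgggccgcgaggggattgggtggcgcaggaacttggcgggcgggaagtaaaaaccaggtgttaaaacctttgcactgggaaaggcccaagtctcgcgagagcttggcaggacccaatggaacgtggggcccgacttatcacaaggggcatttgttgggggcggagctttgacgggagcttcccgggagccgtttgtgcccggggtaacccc

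CACGTG, which reads the same on both strands, was found in 1 of the 8 members with a RefSeq window (250 bases before to 50 after the start), and in 7.3% of the 35116 windows of all genes. In UPF2 it begins 237 bases before the start. In MYC-OE, UPF2 was at 77.5, 72.8 and 80.5 CPM against 78.8, 89.4 and 74.6 in 3xCTL, and the log2 difference of -0.07 (SE 0.0829, adjusted p = 0.535) did not pass the threshold. A match is a description of the letters in the window.

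UPF3B, on chromosome X at 119805311 to 119852998, had 33.3, 33.9 and 35.6 CPM in SRSF3-OE and 27.4, 24.8 and 28 CPM in 1xCtrl. Every library of SRSF3-OE was above every other library of the 21, the next being 30.9 CPM in SRSF2-OE. The log2 fold change against 1xCtrl was 0.37 (SE 0.0746, adjusted p = 0.00212). UPF2, on chromosome 10 at 11920022 to 12043170, had 103, 86.7 and 93.9 CPM in SRSF3-OE and 79.6, 70.8 and 81.4 CPM in 1xCtrl. These groups do not overlap, and the log2 fold change was 0.31 (SE 0.0800, adjusted p = 0.0109). Without SRSF3-OE replicate 1, the highest library, the UPF2 difference was 0.20 (adjusted p = 0.0612), and it also missed the threshold under 3 other settings, among them upper quartile scaling. In the other 4 lines UPF2 lay between -0.07 and 0.13 and UPF3B between -0.13 and 0.10 against control, with no call; with the GC trend removed UPF2 was higher in SRSF2-OE (0.14, adjusted p = 0.0476) and UPF3B lower in 3xSR (-0.14, adjusted p = 0.0449).

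UPF3A is the paralog of UPF3B, with a weaker or opposing role in NMD that varies between systems. It did not rise with UPF3B: in SRSF3-OE it was at 141, 152 and 154 CPM against 149, 151 and 153 CPM in 1xCtrl (log2 difference -0.01, SE 0.0596, adjusted p = 0.936). The ratio of UPF3A to UPF3B in CPM was 4.35 ± 0.128 (SD, n = 3) in SRSF3-OE and 5.68 ± 0.374 in 1xCtrl, and between 5.04 and 5.46 in the other 5 groups. UPF3A was lower in SRSF7-OE, with 132, 134 and 131 CPM, all below 1xCtrl (log2 fold change -0.19, SE 0.0596, adjusted p = 0.0478). Leaving out 1xCtrl replicate 3 or any 1 of the SRSF7-OE replicates took this call to an adjusted p between 0.0565 and 0.073, and it was kept in 9 of 17 alternatives in all; blocked on the replicate number it had an adjusted p of 0.0631. In the other table UPF3A was at 125 ± 5.58 CPM in 3xSR and 118 ± 5.39 in MYC-OE against 130 ± 6.46 in 3xCTL, and neither difference passed the threshold.

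The kinase complex of SMG1, SMG8 and SMG9 gave 4 of the 8 calls, and its members did not move together. SMG1, the UPF1 kinase (chromosome 16, 18804853 to 18926454, minus strand), had 243, 203 and 219 CPM in 3xSR and 168, 185 and 184 CPM in 3xCTL. No library of 3xSR fell within the control range, and the log2 fold change was 0.31 (SE 0.0653, adjusted p = 0.00392). It passed the threshold under all 16 alternatives tried, and was 0.20 (adjusted p = 0.00648) with the GC trend removed. In the other table SMG1 read lower than control in SRSF2-OE, at 174, 181 and 185 CPM against 222, 198 and 228 in 1xCtrl. That log2 fold change of -0.25 (SE 0.0865, adjusted p = 0.0498) was just past the threshold, and was -0.24 (adjusted p = 0.00602) with the GC trend removed. It missed the threshold under RLE and upper quartile scaling and limma-voom, with the replicate number as a block (adjusted p = 0.0784), and without 1xCtrl replicate 3 (adjusted p = 0.0695) or SRSF2-OE replicate 1 (0.0563). SRSF7-OE had 187, 195 and 166 CPM, all below the control range (-0.24, adjusted p = 0.0814), and passed the threshold without 1xCtrl replicate 2 (-0.29, adjusted p = 0.0123), without SRSF7-OE replicate 2 (-0.30, adjusted p = 0.0467) and with the GC trend removed (-0.23, adjusted p = 0.00937). SRSF3-OE overlapped its control, at 260, 212 and 220 CPM (0.11, adjusted p = 0.389). The control means of SMG1 were 179 CPM in 3xCTL and 216 in 1xCtrl, beside 222 in 3xSR and 180 in SRSF2-OE. The difference between the controls was not tested. Whether the SMG1 difference in 3xSR differs from those in the single lines was not tested, since they lie in separate tables.

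SMG8, which regulates the kinase, was higher in SRSF3-OE and SRSF2-OE. Its CPM was 28.5, 26.7 and 28.6 in 1xCtrl, 37.6, 33.8 and 37.1 in SRSF3-OE and 32.9, 32.9 and 33.0 in SRSF2-OE. All 6 libraries of these lines were above all 3 of the control. The log2 fold change was 0.39 (SE 0.0658, adjusted p = 6.59e-04) in SRSF3-OE and 0.25 (SE 0.0657, adjusted p = 0.0154) in SRSF2-OE, the latter 0.20 (adjusted p = 0.0504) without 1xCtrl replicate 1. In SRSF7-OE SMG8 was at 27.0, 27.6 and 24.5 CPM, overlapping the control (-0.08, adjusted p = 0.473). In 3xSR it was at 34.2, 32.9 and 33.9 CPM against 30.8, 32.4 and 28.8 in 3xCTL, without overlap but short of the threshold (0.13, adjusted p = 0.126), which it passed without 3xCTL replicate 2 (0.18, adjusted p = 0.0282). SMG8 lies on chromosome 17 at 59209400 to 59215247, and 422 of its 3752 exon bases are shared with the gene AC099850.2 on the same strand, so its counts are uncertain to that extent.

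SMG9, the partner of SMG8, passed the threshold in no line against control. It was highest in SRSF2-OE, at 23.0, 22.9 and 23.3 CPM, above 19.3, 22.6 and 18.4 CPM in 1xCtrl (log2 difference 0.21, SE 0.0804, adjusted p = 0.0757). With the GC trend removed this was 0.22 (adjusted p = 0.00489), and without 1xCtrl replicate 2 it was 0.29 (adjusted p = 0.00632). SRSF3-OE had the lowest SMG9, at 16.7, 19.2 and 18.6 CPM, overlapping its control (-0.12, adjusted p = 0.284). With the GC trend removed SMG9 passed the threshold in 3xSR (0.17, adjusted p = 0.027) and in MYC-OE (-0.15, adjusted p = 0.0393).

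Of the factors that act on phosphorylated UPF1, SMG5 was not called against any control. In SRSF3-OE it was at 164, 164 and 171 CPM against 140, 168 and 130 CPM in 1xCtrl, where replicate 2 overlaps the line. The difference of 0.20 (SE 0.0727, adjusted p = 0.0535) became 0.29 (adjusted p = 5.61e-04) without that library and 0.31 (adjusted p = 2.31e-05) with the GC trend removed. In 3xSR it was at 152, 168 and 159 CPM against 169, 147 and 171 CPM in 3xCTL, and its difference changed sign with the GC trend removed, from -0.02 (adjusted p = 0.851) to 0.15 (adjusted p = 0.00297). The endonuclease SMG6 was lower in 3xSR, with 45.5, 48.4 and 45.3 CPM against 57.0, 49.2 and 55.8 CPM in 3xCTL. The groups lie apart by a small margin, from 48.4 to 49.2 CPM. The log2 fold change was -0.22 (SE 0.0613, adjusted p = 0.0187), and -0.10 (adjusted p = 0.0579) with the GC trend removed. It missed the threshold when 3xCTL replicate 1 or 3, or 3xSR replicate 1 or 3, was left out (adjusted p from 0.0651 to 0.079). In the annotation used here 2419 of the 10554 exon bases of SMG6 lie opposite HIC1, a gene on the other strand, and the strand setting of the counting is not given in the sources used here.

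**Figure D2:**
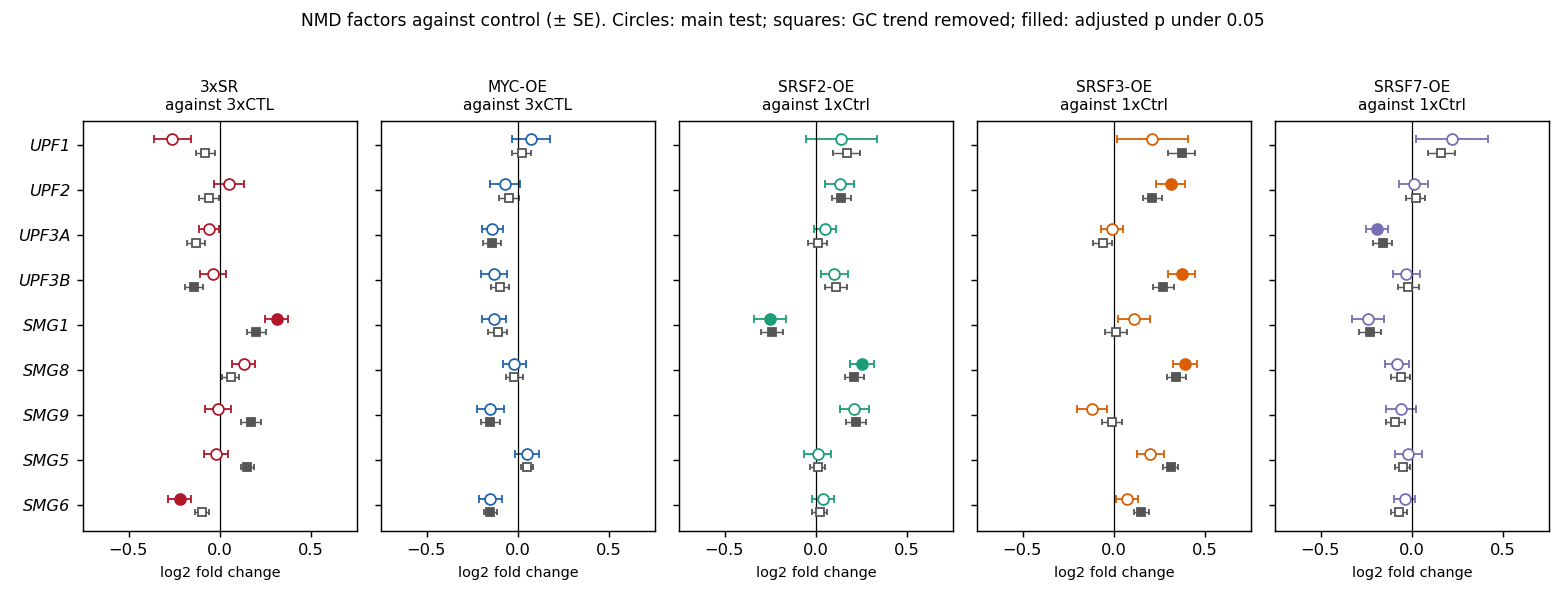
Log2 fold change of each NMD factor (rows) in the 5 lines against their own controls, with bars of ± 1 standard error and a vertical line at 0; circles are the edgeR test, squares the same with the GC trend removed, and filled symbols passed an adjusted p of 0.05. The 8 filled circles are SMG1 and SMG6 in 3xSR, SMG8 and SMG1 in SRSF2-OE, SMG8, UPF3B and UPF2 in SRSF3-OE, and UPF3A in SRSF7-OE.

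Each line's count is read against the share of all genes called in the same comparison. In 3xSR 2 of the 9 factors were called, beside 29.0% of the 23160 genes tested (15.3% higher and 13.7% lower). In MYC-OE 0 of the 9 were called by edgeR, DESeq2 or limma-voom, beside 35.3% of genes by edgeR (18.0% higher and 17.3% lower). There, 2 of the 9 had an unadjusted p under 0.05, and the smallest adjusted p was 0.0718 (UPF3A, -0.14). In the line SRSF2-OE 2 of the 9 were called beside 23.5% of the 24362 genes tested (11.6% higher and 11.9% lower). For SRSF3-OE it was 3 of 9 beside 29.2% (15.0% and 14.1%), and for SRSF7-OE 1 of 9 beside 17.3% (9.03% and 8.26%). Among genes at a mean of 10 CPM or more, which all 9 factors are, the shares were 37.7% in 3xSR, 45.9% in MYC-OE, 42.2% in SRSF3-OE, 35.3% in SRSF2-OE and 26.6% in SRSF7-OE, and in no line was the called share of the factors as large. The libraries of line and control did not overlap for 3 factors in 3xSR (40.2% of all genes), 1 in MYC-OE (48.3%), 3 in SRSF3-OE (39.9%), 3 in SRSF2-OE (36.4%) and 2 in SRSF7-OE (33.5%).

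With the GC trend removed the counts of factors called were 4 in 3xSR (33.8% of all genes), 3 in MYC-OE (44.1%), 6 in SRSF3-OE (38.6%), 4 in SRSF2-OE (34.4%) and 2 in SRSF7-OE (29.6%). In SRSF3-OE all 6 were higher (UPF1, UPF2, UPF3B, SMG5, SMG6 and SMG8), and in MYC-OE all 3 were lower (UPF3A at -0.14, SMG6 at -0.15 and SMG9 at -0.15). Without 1xCtrl replicate 2 alone the counts were 5 in SRSF3-OE (32.1% of all genes), 4 in SRSF2-OE (30.0%) and 3 in SRSF7-OE (29.2%). The median log2 difference of the 9 factors was -0.02 in 3xSR, -0.13 in MYC-OE, 0.20 in SRSF3-OE, 0.10 in SRSF2-OE and -0.04 in SRSF7-OE, while the median of all genes was between -0.03 and 0.

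**Figure D3:**
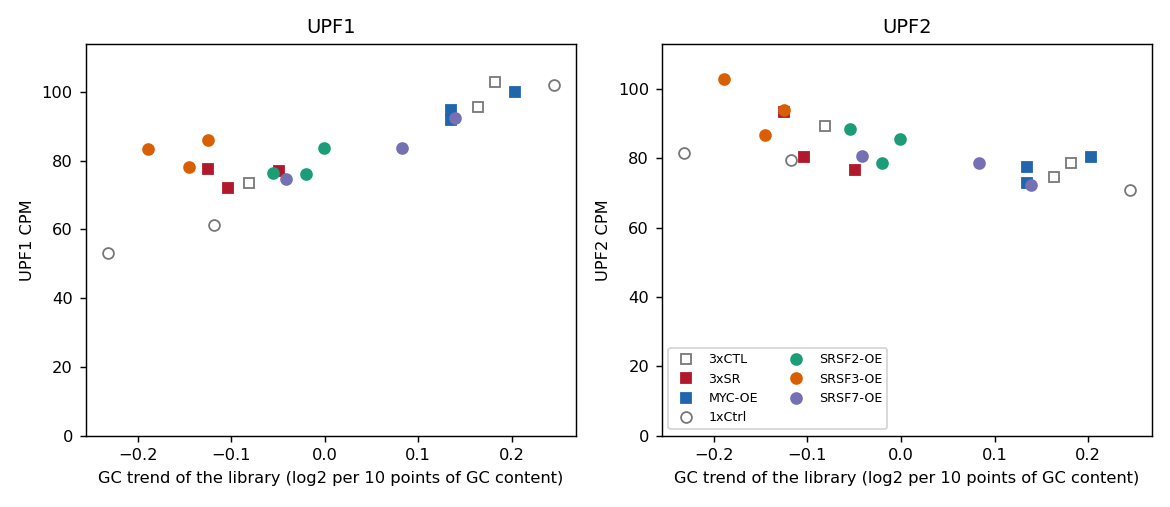
Level of UPF1 (left) and UPF2 (right) in CPM, on axes starting at 0, against the GC trend of each of the 21 libraries in log2 units for each 10 points of transcript GC; each point is a library and its marker and colour give the group. UPF1, with 59.6% GC, reads from 53.1 CPM in the 1xCtrl library with a trend of -0.232 to 102 in the one at 0.245, while UPF2, with 41.5% GC, reads 81.4 and 70.8 CPM in the same libraries.

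The lines of a table were also compared with each other directly, which tests whether a factor differs between them. SRSF7-OE against SRSF3-OE gave the most calls: 6 of the 9 factors were lower in SRSF7-OE and none higher, where 35.2% of all genes were called (17.3% higher and 17.8% lower), and 48.1% of those at 10 CPM or more. The libraries did not overlap for 7 of the 9, beside 52.4% of all genes. SMG8 was lower by the most, at a log2 fold change of -0.46 (SE 0.0658, adjusted p = 1.21e-04), from 36.2 ± 2.1 to 26.4 ± 1.61 CPM. UPF3B followed at -0.40 (SE 0.0745, adjusted p = 9.08e-04), with 26.3, 25.8 and 26.0 CPM in SRSF7-OE. SMG1 (-0.35, adjusted p = 0.00708) and UPF2 (-0.30, adjusted p = 0.00991) were lower too. SMG5 (-0.22, adjusted p = 0.0312) and UPF3A (-0.18, adjusted p = 0.0338) were closer to the threshold: SMG5 missed it when any 1 of the 6 libraries was left out, and UPF3A when any but SRSF3-OE replicate 1 was. SMG6 (-0.11, adjusted p = 0.166), UPF1 (0.01) and SMG9 (0.07) were not called. With the GC trend removed 7 factors were lower, beside 42.7% of all genes: UPF1 (-0.20) and SMG6 (-0.22) were added and UPF3A (-0.10, adjusted p = 0.134) was lost. With library size as the only scaling, 3 factors were called.

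In SRSF3-OE against SRSF2-OE 3 of the 9 factors were called, beside 26.8% of all genes (14.1% higher and 12.6% lower) and 37.1% of those at 10 CPM or more; 5 of the 9 did not overlap, beside 47.5%. SMG1 (0.36, SE 0.0866, adjusted p = 0.00733) and UPF3B (0.27, adjusted p = 0.0168; not past the threshold under upper quartile scaling) were higher in SRSF3-OE, and SMG9 was lower (-0.34, adjusted p = 0.00749). SMG9 missed the threshold without SRSF3-OE replicate 1 (-0.28, adjusted p = 0.0691). SMG1 and SMG9, of one complex, thus moved in opposite directions in the same comparison. SMG5 (0.30) and SMG6 (0.12) were higher too with the GC trend removed, beside 35.4% of all genes. In SRSF7-OE against SRSF2-OE 3 of the 9 were lower, beside 24.2% of all genes (12.8% higher and 11.5% lower) and 34.2% of those at 10 CPM or more. They were SMG8 (-0.32, adjusted p = 0.00306), UPF3A (-0.23, adjusted p = 0.0121) and SMG9 (-0.27, adjusted p = 0.0273). Those 3 were the factors whose libraries did not overlap, beside 46.2% of all genes, and the same 3 were lower with the GC trend removed (34.7%). SMG9 missed the threshold there whichever of the 6 libraries was left out (adjusted p from 0.0944 to 0.179), and UPF3A without SRSF2-OE replicate 2 (-0.17, adjusted p = 0.0641).

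In MYC-OE against 3xSR 2 of the 9 factors were called, beside 34.9% of all genes (17.3% higher and 17.6% lower) and 50.3% of those at 10 CPM or more; 4 of the 9 did not overlap, beside 53.1%. SMG1 was lower in MYC-OE, at 163, 161 and 167 CPM, all below the 3xSR libraries (-0.44, SE 0.0653, adjusted p = 3.52e-04), and was -0.31 (adjusted p = 2.26e-04) with the GC trend removed. UPF1 was higher (0.34, SE 0.103, adjusted p = 0.0289), and was 0.10 (adjusted p = 0.156) with the GC trend removed. SMG5 (-0.10) and SMG9 (-0.31) were lower with the trend removed, beside 38.2% of all genes. The UPF1 difference also missed the threshold whichever of the 6 libraries was left out, with an adjusted p from 0.0516 to 0.0979.

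**Figure D4:**
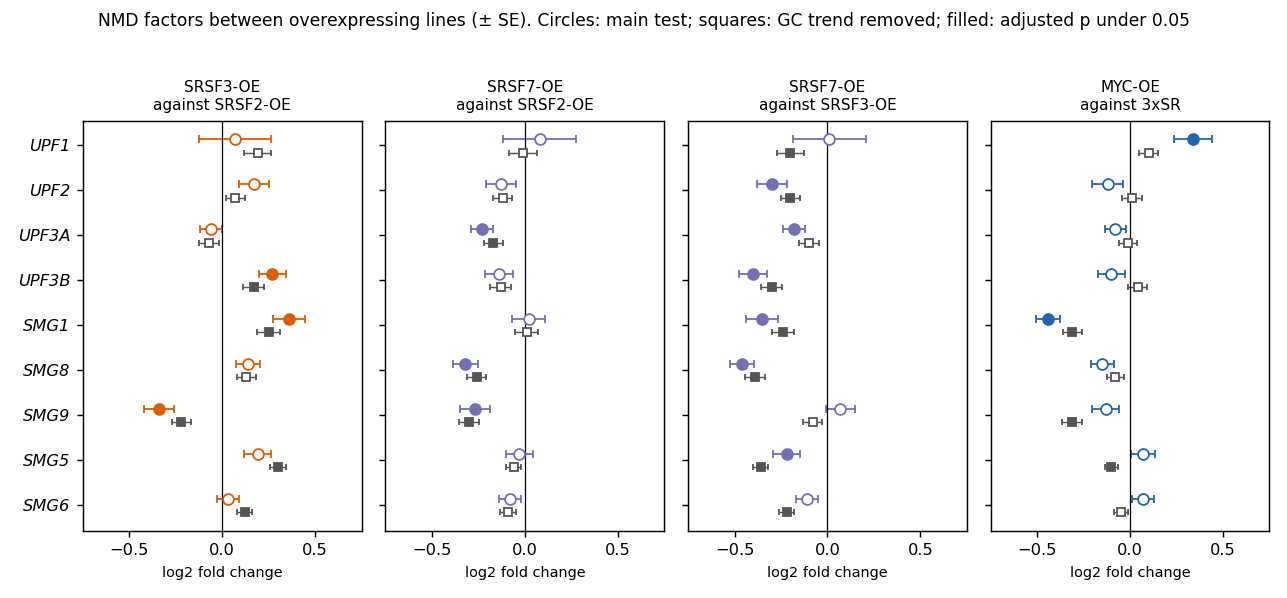
Log2 fold change of each NMD factor (rows) between lines of the same table, with bars of ± 1 standard error; circles are the edgeR test, squares the same with the GC trend removed, and filled symbols passed an adjusted p of 0.05. In SRSF7-OE against SRSF3-OE 6 of the 9 circles are filled, all below 0, and in MYC-OE against 3xSR the SMG1 circle lies at -0.44.

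SMG1 has 7 annotated pseudogenes (SMG1P1 to SMG1P7), whose transcripts share stretches with it, so its counts are uncertain where a read fits both. Of the 150-base windows of the pseudogene transcripts, between 4.4% (SMG1P3) and 18.1% (SMG1P6) occur letter for letter in an SMG1 transcript, and 6.7% of those of the longest coding SMG1 transcript occur in a pseudogene. A stretch of 60 bases from exon 15 of SMG1 (chr16:18872201-18872260, minus strand, GENCODE transcripts on GRCh38) is shown with its copies to illustrate how little can separate them. Among coding stretches of that length it was picked for the most near copies, each differing from SMG1, with the fewest mismatches. It is therefore not a typical stretch. Capitals mark the positions that differ between SMG1 and any copy in the SMG1 line, and the base that differs from SMG1 in each copy.
SMG1: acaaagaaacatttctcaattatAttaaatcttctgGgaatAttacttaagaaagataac
SMG1P1: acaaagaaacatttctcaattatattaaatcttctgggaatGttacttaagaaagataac
SMG1P2: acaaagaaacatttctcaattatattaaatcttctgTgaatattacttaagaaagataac
SMG1P7: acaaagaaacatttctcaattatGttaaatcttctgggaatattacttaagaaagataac

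Each of the 7 copies has 1 mismatch to SMG1 in this stretch; SMG1P3 and SMG1P4 read as SMG1P1 does, and SMG1P5 and SMG1P6 as SMG1P2 does. The 7 pseudogenes together held between 46.4% (1xCtrl) and 54.2% (MYC-OE) of the CPM of SMG1. Their sum was 112, 107 and 108 CPM in 3xSR and 88.0, 107 and 93.3 CPM in 3xCTL, groups that meet at 107. SMG1 and its pseudogenes summed to 355, 310 and 327 CPM in 3xSR and 256, 292 and 278 CPM in 3xCTL, without overlap. In 3xSR 2 of the 7 pseudogenes were higher (15.3% of all genes) and none lower (13.7%). The 2 were SMG1P1 (0.32, adjusted p = 0.0171) and SMG1P3 (0.22, adjusted p = 0.0214). SMG1P1 shares 2061 of its 7046 exon bases with the coding gene NPIPB5 on the same strand. SMG1P3 shares 386 of 7107 with NPIPB3, SMG1P4 386 of 6290 with NPIPB4, and SMG1P6 499 of 2930 with BOLA2, also on the same strand. The counts of these pseudogenes are uncertain at least to that extent. In SRSF3-OE, where SMG1 itself was not called, 3 were higher (SMG1P4 at 0.49, SMG1P3 at 0.45 and SMG1P1 at 0.34) and SMG1P7 was lower (-0.36). There 15.0% of all genes were higher and 14.1% lower. SMG1P7 was also lower in SRSF7-OE (-0.58), where 8.26% of all genes were. In MYC-OE it was lower together with SMG1P4, beside 17.3% of all genes. In SRSF2-OE, where SMG1 was called lower, edgeR called none of the 7, beside 23.5% of all genes. Of the 7, 1 had an unadjusted p under 0.05 there. After removal of the GC trend the pseudogenes higher and lower were 6 and 1 in SRSF3-OE (20.5% and 18.1% of all genes). They were none and 1 in SRSF2-OE (17.2% and 17.2%) and none and 3 in SRSF7-OE (15.5% and 14.1%). In 3xSR they were 2 and none (17.5% and 16.3%), and in MYC-OE none and 2 (22.6% and 21.5%). In SRSF7-OE against SRSF3-OE 6 of the 7 were lower (17.8% of all genes), and in MYC-OE against 3xSR 5 of the 7 (17.6%). SMG1 was lower in both comparisons as well. With the GC trend removed these counts were 6 and 5 too, beside 21.9% and 18.9% of all genes. How far reads were split between SMG1 and its copies was not tested.

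**Figure D5:**
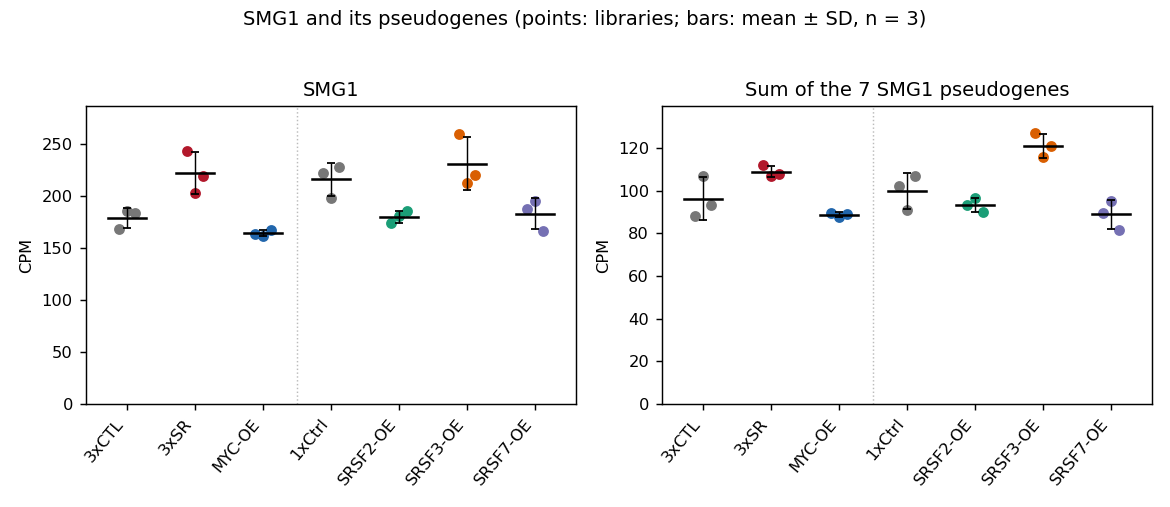
SMG1 (left) and the sum of its 7 pseudogenes (right) in CPM by group, with a point for each library and bars at the mean ± SD of 3 libraries, on axes starting at 0. SMG1 runs from 161 to 260 CPM over the 21 libraries. Both panels have their highest means in SRSF3-OE (231 and 121 CPM), then 3xSR (222 and 109) and the control 1xCtrl (216 and 100).

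The other genes of the pathway were followed in lists, whose counts are given beside the shares of all genes called in the same direction. Most genes of these lists are at a mean of 10 CPM or more, where larger shares were called. Those shares, in either direction, were 42.2% in SRSF3-OE, 35.3% in SRSF2-OE, 26.6% in SRSF7-OE, 37.7% in 3xSR and 45.9% in MYC-OE. The EJC is the mark that UPF3B binds. Its list held 7 genes: EIF4A3, RBM8A, MAGOH, MAGOHB, CASC3, RNPS1 and PYM1. PYM1 takes EJCs off RNA and is counted in the list though it is not part of the mark. Of the 7, 6 were higher in SRSF3-OE (15.0% of all genes), 4 in SRSF2-OE (11.6%) and 3 in SRSF7-OE (9.03%), with none lower; in 3xSR 1 was lower (13.7%), and in MYC-OE 2 were lower (17.3%), with none higher in either. Their median log2 fold change was 0.27 in both SRSF3-OE and SRSF2-OE, 0.13 in SRSF7-OE, -0.09 in 3xSR and -0.05 in MYC-OE. After removal of the GC trend the EJC counts higher and lower were 6 and 0 in SRSF3-OE (20.5% and 18.1% of all genes). They were 5 and 0 in SRSF2-OE (17.2% and 17.2%) and 4 and 1 in SRSF7-OE (15.5% and 14.1%). In 3xSR they were 0 and 2 (17.5% and 16.3%), and in MYC-OE 1 and 2 (22.6% and 21.5%). RBM8A, which encodes the EJC core protein Y14, was highest in SRSF3-OE at 96.3 against 69.1 CPM (0.49, SE 0.0617, adjusted p = 6.89e-05). PYM1 was higher in SRSF2-OE (0.46, adjusted p = 6.74e-04) and SRSF7-OE (0.43, adjusted p = 0.00194), at 15.8 and 15.5 CPM against 11.5 in 1xCtrl. In the other control, 3xCTL, it was at 15.7 CPM. EIF4A3, the EJC helicase, was the lowest in 3xSR (-0.23, adjusted p = 0.00718) and MYC-OE (-0.49, adjusted p = 2.3e-05). Its mean was 139 CPM in 3xCTL and 99.9 in 1xCtrl, while MAGOH was at 29.7 and 29.5. The controls were not tested against each other. SRSF2-OE, SRSF3-OE and SRSF7-OE share the control 1xCtrl, so their EJC counts are not independent.

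Of 13 genes of translation termination and other NMD-linked factors, 12 were tested. In SRSF3-OE 7 were higher (15.0% of all genes) and none lower, led by ETF1, the release factor that ends translation (0.51, SE 0.0739, adjusted p = 2.17e-04). In SRSF2-OE 6 were higher and 1 lower (11.6% and 11.9%), in SRSF7-OE 3 and 1 (9.03% and 8.26%), in 3xSR 2 and 1 (15.3% and 13.7%), and in MYC-OE 3 and none (18.0% and 17.3%). Under GC trend removal they were 9 and none in SRSF3-OE (20.5% and 18.1% of all genes) and 7 and 1 in SRSF2-OE (17.2% and 17.2%). In SRSF7-OE they were 3 and 2 (15.5% and 14.1%), in 3xSR 4 and 2 (17.5% and 16.3%), and in MYC-OE 4 and 3 (22.6% and 21.5%). The list's median was 0.24 in SRSF3-OE, 0.22 in SRSF2-OE, 0.09 in SRSF7-OE, 0.01 in 3xSR and -0.01 in MYC-OE. STAU1, which directs a related decay pathway through UPF1, was the highest called gene of the list in the other 4 lines: 0.31 in 3xSR, 0.48 in MYC-OE, 0.34 in SRSF2-OE and 0.32 in SRSF7-OE. NBAS, a partner of UPF1 in NMD, was the lowest in SRSF2-OE (-0.37, adjusted p = 0.00675) and SRSF7-OE (-0.33, adjusted p = 0.0179), and SEC13 in 3xSR (-0.27, adjusted p = 0.00505).

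Among 21 RNA decay enzymes and decapping factors, higher and lower calls were 4 and 3 in 3xSR, 3 and 7 in MYC-OE, 4 and 3 in SRSF3-OE, 2 and 2 in SRSF2-OE, and none and 3 in SRSF7-OE. The shares of all genes higher and lower were 15.3% and 13.7% in 3xSR, 18.0% and 17.3% in MYC-OE, 15.0% and 14.1% in SRSF3-OE, 11.6% and 11.9% in SRSF2-OE, and 9.03% and 8.26% in SRSF7-OE. The decay list had medians between -0.12 (MYC-OE) and 0.05 (SRSF3-OE). With the GC trend removed the decay list had 5 higher and 8 lower in 3xSR (17.5% and 16.3% of all genes). MYC-OE had 5 and 11 (22.6% and 21.5%), and SRSF3-OE 7 and 4 (20.5% and 18.1%). SRSF2-OE had 4 and 7 (17.2% and 17.2%), and SRSF7-OE 2 and 6 (15.5% and 14.1%). Under that setting calls rose in both directions in the list and over all genes alike. DCP1B, a decapping cofactor, had the largest difference in 3xSR (2.45) and MYC-OE (4.01), at a mean of 0.157 and 0.467 CPM against 0.0288 in 3xCTL. It had only 4 to 8 counts a library in 3xCTL and 14 to 39 in 3xSR, so these fold changes rest on very few control counts. The lowest called genes were EDC3 in 3xSR (-0.39, adjusted p = 7.9e-05), PATL1 in MYC-OE (-0.51, adjusted p = 1.54e-05), SKIC3 in SRSF2-OE (-0.51, adjusted p = 5.19e-04), DIS3L in SRSF3-OE (-0.46, adjusted p = 2.49e-04) and EXOSC10 in SRSF7-OE (-0.35, adjusted p = 0.00152). DIS3, an exosome nuclease, was the highest in SRSF3-OE (0.56, adjusted p = 1.89e-04), and EDC3, an enhancer of decapping, in SRSF2-OE (0.28, adjusted p = 0.00996).

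Of 22 genes with transcripts known to be NMD-sensitive, 10 were higher and 3 lower in 3xSR (15.3% and 13.7% of all genes). MYC-OE had 8 and 3 (18.0% and 17.3%), and SRSF3-OE 9 and 3 (15.0% and 14.1%). SRSF2-OE had 9 and 3 (11.6% and 11.9%), and SRSF7-OE 2 and 8 (9.03% and 8.26%). Under GC trend removal 3xSR had 10 and 4 (17.5% and 16.3%), and MYC-OE 9 and 4 (22.6% and 21.5%). SRSF3-OE then had 11 and 4 (20.5% and 18.1%), SRSF2-OE 11 and 3 (17.2% and 17.2%), and SRSF7-OE 3 and 8 (15.5% and 14.1%). The list's median was 0.18, 0.10, 0.09, 0.15 and -0.04 in that order. SRSF7-OE against SRSF3-OE had 3 higher and 13 lower (17.3% and 17.8% of all genes), with a median log2 fold change of -0.38 beside 0.02 over all genes. MYC-OE against 3xSR had 4 and 13 (17.3% and 17.6%), with a median of -0.21. SRSF7-OE against SRSF2-OE had 1 and 11 (12.8% and 11.5%), with a median of -0.26. SRSF3-OE against SRSF2-OE had 4 and 4 (14.1% and 12.6%), with a median of -0.03. Many of these genes also answer to amino acid stress or p53, so their level is no measure of NMD alone. ATF3, a stress transcription factor, was at 14.9, 13.4 and 14.1 CPM in SRSF3-OE against 5.96, 6.18 and 6.53 in 1xCtrl (1.20, SE 0.0822, adjusted p = 5.8e-07), and was lower in SRSF7-OE, at 4.27, 4.79 and 4.68 CPM (-0.44, adjusted p = 0.00312). ASNS, asparagine synthetase, fell in SRSF3-OE from 53.0 to 24.9 CPM (-1.08, adjusted p = 4.38e-07). CDKN1A, the p53 target that encodes a cell cycle inhibitor, was the highest in SRSF2-OE (1.10, adjusted p = 7.3e-07) and SRSF7-OE (0.45, adjusted p = 0.00114). NAT9 was the lowest called gene in 3xSR (-0.34, adjusted p = 0.00451) and MYC-OE (-0.56, adjusted p = 1.06e-04), where ATF3 was the highest (1.39 and 1.18).

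Likeness of pattern was measured as the root mean square difference between 2 genes' 5 log2 fold changes against control, over 10789 genes at 5 CPM or more in every group. The lines of a table share their control libraries, so these 5 values are not independent. The closest genes were OBI1 to UPF3B (0.012), C17orf75 to UPF3A (0.016), NUP133 to SMG5 (0.022), KDM2B to SMG6 (0.023), OSBP to SMG8 (0.024), DDX49 to UPF1 (0.029), MTIF2 to UPF2 (0.029), METTL23 to SMG9 (0.037) and MITD1 to SMG1 (0.039). After these came ARMCX5 and CRCP for UPF3B, RBM22 and GNL2 for SMG8, and TPST1 and SLC19A2 for SMG1. The factors were not each other's nearest genes. UPF2 was the nearest NMD factor to UPF3B, at rank 33 (0.059), and for SMG1 the nearest was UPF3A at rank 1971 (0.220).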

How the data were processed

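Gene-level counts of 21 libraries were used as deposited by the authors, in 2 tables of whole-number counts, 9 and 12 libraries, not scaled to a common total. The submitters' processing notes name Trimmomatic 0.39, STAR, StringTie 2.1.3b and GRCh38.p13, with no role for each. The annotation release and the strand setting are not given in the sources used here. If the counts were derived from StringTie's coverage, they are estimates rounded to whole numbers. Positions, lengths, exon overlaps and GC content came from GENCODE release 29 (GRCh38), matched by identifier without its version.

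Each table was fitted once over all its groups in R 4.3.3 with edgeR 4.0.16: filterByExpr (minimum count 10, minimum total count 15), TMM scaling, a robust quasi-likelihood fit and F tests in either direction, with Benjamini-Hochberg adjustment over all genes tested and a threshold of 0.05. No replicate block was used. CPM values were scaled by TMM over all 21 libraries. The standard error is the absolute log2 fold change divided by the square root of F. The procedure was tested on simulated counts. Alternatives were RLE, upper quartile and no scaling beyond library size, no filter or at least 10 counts in every library, DESeq2 1.42.0, limma-voom (limma 3.58.1), the compared groups alone, a replicate block and leaving out each library. Removal of each library's GC trend (median deviation in 50 GC bins, as an offset), alone or without 1xCtrl replicate 2, was added after seeing the data.

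The members and lists were chosen with earlier results of these data known. All 9 factors were tested in each comparison, and some values short of the threshold are not reported here. Of the other lists, the called gene with the highest and the one with the lowest log2 fold change are named in each comparison with a control, with SMG1's pseudogenes and the overexpressed genes. The nearest genes by pattern are those with the smallest root mean square difference; some of these are not reported here. Replicates differed by more than counting error.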

Additional observations from a re-analysis of the deposited data

Results flagged for a closer look

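Lines that share a table were compared directly, which tests the difference between 2 lines' effects, and edgeR called 14 such differences of a factor. In 9 of them 1 line's own effect was called against control and the other's was not.

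SMG1 differed between MYC-OE and 3xSR by -0.44 on the log2 scale (edgeR adjusted p = 3.52e-04), with effects of -0.13 and 0.31 against 3xCTL, and the libraries of MYC-OE were lower than those of 3xSR in 3 of 3. SMG1 also differed between SRSF3-OE and SRSF2-OE by 0.36 (0.00733), with effects of 0.11 and -0.25 against 1xCtrl. UPF3B differed between the same lines by 0.27 (0.0168), with effects of 0.37 and 0.10. Between SRSF7-OE and SRSF3-OE the differences were -0.46 for SMG8 (1.21e-04; effects -0.08 and 0.39), -0.40 for UPF3B (9.08e-04; -0.03 and 0.37), -0.30 for UPF2 (0.00991; 0.01 and 0.31) and -0.18 for UPF3A (0.0338; -0.19 and -0.01). Between SRSF7-OE and SRSF2-OE they were -0.32 for SMG8 (0.00306; -0.08 and 0.25) and -0.23 for UPF3A (0.0121; -0.19 and 0.05).

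In the other 5 neither line was called against its control. They were UPF1 in MYC-OE against 3xSR (0.34, adjusted p = 0.0289), SMG9 in SRSF3-OE against SRSF2-OE (-0.34, 0.00749) and in SRSF7-OE against SRSF2-OE (-0.27, 0.0273), and SMG1 (-0.35, 0.00708) and SMG5 (-0.22, 0.0312) in SRSF7-OE against SRSF3-OE.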

How the results depend on the processing

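Counts of the 9 factors called moved with the scaling, the filter and the GC trend, and the cause was not tested. In SRSF2-OE against 1xCtrl, 1 factor was called with RLE, 1 with upper quartile scaling and 1 with limma-voom, in place of 2. With library size as the only scaling, 2 were called in MYC-OE against 3xCTL (0 by the main test), 2 in SRSF7-OE against 1xCtrl (1) and 3 in SRSF7-OE against SRSF3-OE (6). In SRSF7-OE against 1xCtrl, 0 were called without a filter and 0 when only the groups compared were fitted; by edgeR's main test 2 of the 9 had an unadjusted p under 0.05 there. With the GC trend removed, added after seeing the data, 4 were called in 3xSR, 3 in MYC-OE, 6 in SRSF3-OE, 4 in SRSF2-OE and 2 in SRSF7-OE against control, and 5 in SRSF3-OE against SRSF2-OE. Without 1xCtrl replicate 2 as well, the counts were 6 in SRSF3-OE, 4 in SRSF2-OE and 2 in SRSF7-OE.

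Same-numbered replicates shared only a number: the correlation of their deviations from group means averaged between -0.107 and 0.012 over the 9 contrasts. With the replicate block, 1 factor was called in SRSF2-OE and 0 in SRSF7-OE against 1xCtrl (SMG1 and UPF3A missed the threshold), and no other count moved.

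Leaving out 1 library at a time, the count called ranged from 1 to 4 in 3xSR, 0 to 1 in MYC-OE, 1 to 4 in SRSF2-OE, 2 to 5 in SRSF3-OE and 0 to 3 in SRSF7-OE against control. It ranged from 1 to 2 in MYC-OE against 3xSR, 2 to 5 in SRSF3-OE against SRSF2-OE, 1 to 2 in SRSF7-OE against SRSF2-OE and 4 to 5 in SRSF7-OE against SRSF3-OE.

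Of 1323 values of single factors under alternatives, 66 changed sign, 62 of them with neither value past the threshold. The other 4 came with the GC trend removed: SMG5 (0.15) and SMG9 (0.17) in 3xSR against 3xCTL, SMG5 (-0.10) in MYC-OE against 3xSR and UPF1 (-0.20) in SRSF7-OE against SRSF3-OE. Changes of sign short of the threshold under that setting were UPF2 in 3xSR against 3xCTL (-0.06), UPF2 (0.01), UPF3B (0.04) and SMG6 (-0.05) in MYC-OE against 3xSR, UPF1 in SRSF7-OE against SRSF2-OE (-0.01) and SMG9 in SRSF7-OE against SRSF3-OE (-0.08), and, without 1xCtrl replicate 2 as well, SMG5 in SRSF2-OE against 1xCtrl (-0.01). Under upper quartile scaling they were UPF2 in SRSF7-OE against 1xCtrl (-0.03), SMG6 in SRSF3-OE against SRSF2-OE (-0.03) and SMG1 in SRSF7-OE against SRSF2-OE (-0.02). With library size alone they were UPF3A (-0.01), SMG5 (-0.05) and SMG6 (-0.02) in SRSF2-OE, SMG1 (-0.00) and SMG6 (-0.04) in SRSF3-OE against 1xCtrl, SMG6 in SRSF3-OE against SRSF2-OE (-0.02) and SMG5 in SRSF7-OE against SRSF2-OE (0.03). Without a filter SMG5 was at -0.03 in SRSF2-OE against 1xCtrl and 0.01 in SRSF7-OE against SRSF2-OE, and with only the groups compared SMG5 was at -0.03 and SMG6 at -0.00 in SRSF2-OE against 1xCtrl.

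Leave-one-out ranges that crossed 0 were, in SRSF2-OE against 1xCtrl, UPF1 -0.09 to 0.45, UPF3A -0.04 to 0.04, SMG5 -0.10 to 0.11 and SMG6 -0.05 to 0.09. In SRSF3-OE they were UPF1 -0.02 to 0.52, SMG1 -0.02 to 0.12 and SMG6 -0.02 to 0.12, and in SRSF7-OE against 1xCtrl UPF2 -0.05 to 0.03, SMG5 -0.12 to 0.10, SMG6 -0.12 to 0.03 and SMG9 -0.14 to 0.04. In 3xSR against 3xCTL they were UPF2 -0.04 to 0.12, UPF3B -0.10 to 0.05, SMG5 -0.09 to 0.01 and SMG9 -0.07 to 0.03. In MYC-OE against 3xCTL they were UPF1 -0.06 to 0.17, UPF2 -0.13 to 0.00, SMG5 -0.02 to 0.09 and SMG8 -0.07 to 0.02. Between lines they were SMG1 -0.00 to 0.09 and SMG5 -0.03 to 0.01 in SRSF7-OE against SRSF2-OE, and UPF1 -0.06 to 0.12 in SRSF7-OE against SRSF3-OE. The fewest counts of any factor in a library were 2883 (SMG9 in 3xSR), and 3 libraries a group limit the precision.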
